A study of Mus musculus with 4 samples.

Results

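The genes described here are the expressed members of the mouse Zfp gene family in cultured ovarian granulosa cells (GCs), which enclose and nourish the oocyte in the follicle. A gene was a member when its name was Zfp followed by a number, with or without letters after it, and when its mean over the 4 RNA-seq libraries was at least 2 FPKM (reads scaled to gene length and to the library total). Of 25239 listed genes, 389 had such a name, and 214 of those reached this level. The 4 libraries were 2 of GCs treated with HDACi 4b, a small-molecule inhibitor of the histone deacetylases HDAC1 and HDAC3, and 2 of control GCs. All cells were labelled as C57BL/6 from ovaries at postnatal day 24 and the design names them as wild type, and the labels give no dose or time for these libraries. The methods of the study describe an overnight exposure of mural GCs for a co-culture experiment and do not tie it to the sequenced cells. The notes attached to the same samples describe tamoxifen-injected females with floxed Hdac3 and frozen ovaries, whereas the titles and the series design name cultured cells with and without the inhibitor, and these were followed. Nothing in the labels states that replicate libraries were separate cultures or animals. The p-values therefore reflect only how far these libraries differ, and that spread may be technical.

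Most Zfp genes encode proteins with C2H2 zinc fingers, short loops in which a pair of cysteines and a pair of histidines hold a zinc ion while the loop contacts a few bases of DNA. Many of these proteins also carry a KRAB domain, which recruits the corepressor TRIM28 (KAP1) and through it the histone methyltransferase SETDB1, HP1 proteins and deacetylase complexes. KRAB zinc finger proteins are best known for silencing transposons and for protecting imprinted loci. Histone deacetylases remove acetyl groups from histone tails and act in several such corepressor complexes, among them NuRD.

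The library totals were inferred from the FPKM values and ran from 15951875 to 17665107 reads. Of 12054 genes tested over the whole table, 60.5% were called in limma at an adjusted p of 0.05, 38.1% lower and 22.4% higher in HDACi 4b-treated GCs, and their median log2 difference was -0.15. The libraries gave a member 33 to 4015 reads, with a median of 351.5, where whole reads could be recovered. Of 15 GC markers 14 were above the filter of 1 FPKM, 7 of them lower and 2 higher (4 higher without control replicate 1), and the list summed to 830 and 981 FPKM in HDACi 4b libraries, against 2262 and 2038 FPKM in controls. The defining GC factor Foxl2 was at 24.0 and 28.9 FPKM in HDACi 4b libraries, against 61.4 and 74.2 FPKM in controls. Inha, Inhba, Esr2, Gja1, Fst and Hsd17b1 also fell, with ratios of 0.412, 0.544, 0.0685, 0.151, 0.467 and 0.141. The calls of Inhba and Fst did not hold in every alternative fitted. Inha alone gave 438 and 583 FPKM of the sums in HDACi 4b libraries, against 1219 and 1260 FPKM in controls. The GC markers that rose were Fshr, the receptor for follicle-stimulating hormone, with 8.75 and 9.44 FPKM in HDACi 4b libraries, against 5.62 and 4.93 FPKM in controls, and the nuclear receptor gene Nr5a2, with 52.2 and 54.0 FPKM in HDACi 4b libraries, against 37.5 and 33.0 FPKM in controls. Nr5a1 was not called, with a ratio of 0.980. Markers of theca, stroma and contractile cells, of which 7 of 15 were above the filter, summed to 46.5 and 71.9 FPKM in HDACi 4b libraries, against 221 and 338 FPKM in controls, and all 7 were lower (3 without HDACi 4b replicate 1, and 4 without HDACi 4b replicate 2 or control replicate 2), while the theca enzyme gene Cyp17a1 was at 0.028 FPKM or less in every library. Most of the sum for theca, stroma and contractile cells came from Acta2, with 23.5 and 41.5 FPKM in HDACi 4b libraries, against 162 and 245 FPKM in controls. Macrophage markers (6 of 12 above the filter, 4 lower and 1 higher) summed to 60.6 and 53.1 FPKM in HDACi 4b libraries, against 84.0 and 130 FPKM in controls, with the leukocyte gene Ptprc at 0.083 FPKM or less in every library. The one that rose was the lysosomal gene Cd68, with 37.6 and 27.1 FPKM in HDACi 4b libraries, against 6.73 and 10.8 FPKM in controls, and without it the list summed to 22.9 and 25.9 FPKM in HDACi 4b libraries, against 77.3 and 119 FPKM in controls. Those that fell were Lyz2, Tyrobp, C1qa and C1qb, with ratios of 0.257, 0.203, 0.178 and 0.157. No endothelial marker passed the filter (sums of 1.63 and 1.92 FPKM in HDACi 4b libraries, against 2.54 and 4.00 FPKM in controls), and 1 of 12 oocyte markers did (sums of 5.03 and 7.77 FPKM in HDACi 4b libraries, against 4.65 and 1.62 FPKM in controls). The part of these cell types in the results below was not tested. In such bulk libraries fewer cells of a type and less RNA per cell cannot be told apart.

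Zfp transcripts were mostly lower in HDACi 4b-treated GCs. Of the 214 members, 137 (64.0%) fell and 13 (6.07%) rose at an adjusted p of 0.05, and 64 did not pass the test. The members called higher numbered 8 without HDACi 4b replicate 1 and 7 without HDACi 4b replicate 2. Among all genes tested 38.1% were lower and 22.4% higher, and among the 10388 genes that reached the members' level of 2 FPKM 62.5% were called, 40.0% lower and 22.5% higher. The median log2 difference of the members on the log2(FPKM + 1) scale was -0.44, against -0.15 for all genes tested, and the median ratio of mean FPKM (HDACi 4b over control) was 0.676, against 0.887. When the libraries were rescaled by median ratios, which brought the median of all genes tested to -0.0041, the median of the members was -0.31, and 115 members were lower and 19 higher. Under that scaling 3306 of all genes tested were lower and 3527 higher. The members were chosen by their mean level and with earlier results of these data known, so these counts describe the family and are not independent support for a direction.

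**Figure D1:**
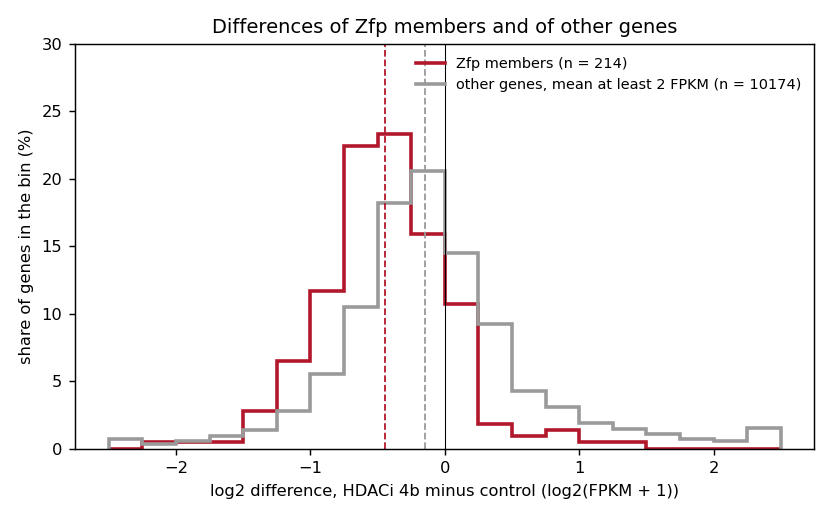
Share of genes in each bin of the log2 difference (HDACi 4b minus control, log2(FPKM + 1), bins of 0.25, values beyond 2.5 in either direction gathered in the end bins) for the 214 Zfp members and for the 10174 other genes at 2 FPKM or more. Dashed lines mark the medians, -0.44 for the members and -0.15 for the other genes, and the red outline lies to the left of the grey one.

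The size of the change was moderate for most members. The ratio of mean FPKM was under 1 in 180 members and over 1 in 34. It was under 0.25 in 3 members, from 0.25 to 0.5 in 37, from 0.5 to 0.75 in 93 and from 0.75 to 1 in 47. Above 1, it was under 1.25 in 23 members, from 1.25 to 2 in 7 and over 2 in 4. An absolute log2 difference of at least 1 was passed by 23 members downward and 2 upward, against 6.7% and 7.54% of all genes tested and 6.77% and 7.05% of those at 2 FPKM or more. The count of 23 became 37 with a pseudocount of 0.1, 36 with limma-voom on recovered reads and 13 with median-ratio scaling, and the upward count ran from 1, without HDACi 4b replicate 1, to 4, without control replicate 1. For 171 members both HDACi 4b libraries lay below both controls, for 21 both lay above, and for 22 the groups overlapped. Among all genes tested the groups did not overlap in 83.1%, with HDACi 4b libraries below the controls in 52.0% and above them in 31.1%, and among those at 2 FPKM or more in 84.1%, with 53.3% below and 30.7% above.

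Summed over the family, the level was 1222 and 1235 FPKM in HDACi 4b libraries, against 1726 and 1682 FPKM in control libraries. The median member was at 3.61 and 3.76 FPKM in HDACi 4b libraries, against 5.60 and 5.50 FPKM in controls. As a percent of the summed FPKM of all genes, the members took 0.354% and 0.358% in HDACi 4b libraries, against 0.531% and 0.511% in controls. The groups did not overlap on any of these measures, and the libraries within a group lay close together.

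The direction did not turn with the level of the members. Of 116 members with a mean of 2 to 5 FPKM, 74 were lower and 5 higher (median log2 difference -0.46), of 58 with 5 to 10 FPKM 37 were lower and 2 higher (-0.38), and of 40 with at least 10 FPKM 26 were lower and 6 higher (-0.42). The other genes had medians of -0.18, -0.21 and -0.10 at the same levels. The threshold itself favours members that differ, because 30 members had an HDACi 4b mean under 2 FPKM and 2 had a control mean under 2 FPKM. All 30 had a lower mean in HDACi 4b libraries by that definition. With the 182 members whose means were at least 2 FPKM in both groups, 109 were lower and 11 higher, and the median was -0.41. Of 71 Zfp genes with a mean of 1 to 2 FPKM, which were not members, 37 were lower and 1 higher (median -0.40). The members just inside the threshold were Zfp558, Zfp185 and Zfp661, with means of 2.00, 2.01 and 2.04 FPKM, and the genes just outside it were Zfp507, Zfp870 and Zfp202, with 1.997, 1.94 and 1.93 FPKM.

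**Figure D2:**
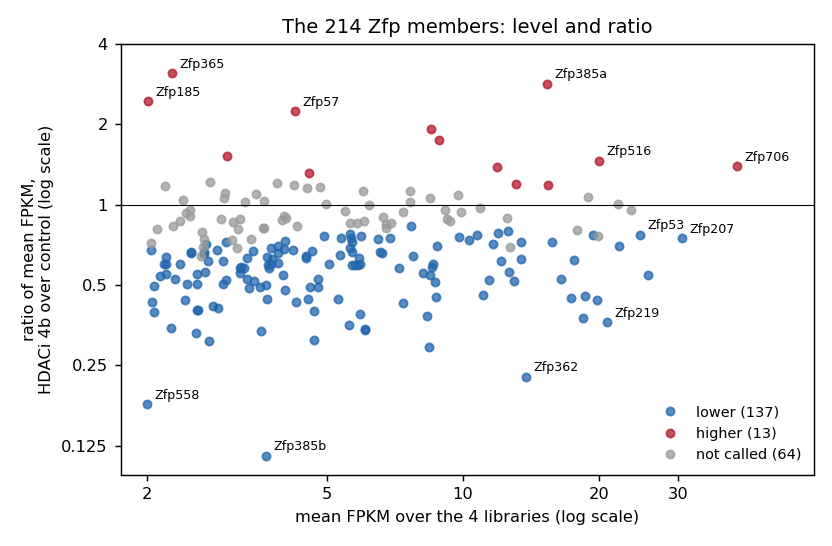
Ratio of mean FPKM (HDACi 4b over control, log scale) against the mean over the 4 libraries (log scale) for each of the 214 members, with 137 called lower, 13 called higher and 64 not called at an adjusted p of 0.05. Points below the line at 1 outnumber those above it across the whole range of levels, and Zfp706, the most abundant member, lies above it.

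The greatest fall was that of Zfp385b, a member of a small group of zinc finger proteins with Zfp385a. It had 0.690 and 0.823 FPKM in HDACi 4b libraries, against 7.32 and 5.86 FPKM in controls, a ratio of 0.115 and a log2 difference of -2.11 ± 0.13 (SE; adjusted p = 0.000256 in limma). Behind these values stood 92 and 108 reads in HDACi 4b libraries, against 990 and 851 in controls. Zfp385b was under 2 FPKM in treated cells and became a member through its level in controls. The paralogue Zfp385a, a target and partner of p53 that also acts in mRNA translation in mouse, moved the other way. It had 24.7 and 20.7 FPKM in HDACi 4b libraries, against 8.31 and 7.66 FPKM in controls, a ratio of 2.84 and a log2 difference of 1.39 ± 0.10 (SE; adjusted p = 0.000407), the greatest rise among the members on that scale.

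Next among the falls came genes of moderate level. Zfp362 had 4.89 and 5.34 FPKM in HDACi 4b libraries, against 22.3 and 22.8 FPKM in controls (log2 difference -1.95 ± 0.07, SE; adjusted p = 9.96e-05). Zfp41 had 3.77 and 3.88 FPKM in HDACi 4b libraries, against 14.2 and 11.9 FPKM in controls (-1.53 ± 0.10, adjusted p = 0.000312). For both genes the libraries of a group lay far closer to each other than to the other group. Zfp219, a transcription factor that works with Sox9 in cartilage, had 10.9 and 11.3 FPKM in HDACi 4b libraries, against 31.8 and 29.6 FPKM in controls (-1.38 ± 0.07, adjusted p = 0.000176). Zfp558, a KRAB zinc finger gene at the lower edge of the range, had 0.576 and 0.638 FPKM in HDACi 4b libraries, against 4.27 and 2.53 FPKM in controls (-1.42 ± 0.21, adjusted p = 0.00359). Its controls differed from each other more than those of the other genes named so far. Zfp558 too was under 2 FPKM in treated cells and became a member through its level in controls. The others of the 12 greatest falls were Zfp760, Zfp358, Zfp651, Zfp469, Zfp46, Zfp428 and Zfp532, with ratios of 0.310, 0.375, 0.340, 0.343, 0.354, 0.384 and 0.336. Human ZNF469, the counterpart of Zfp469, is mutated in brittle cornea syndrome.

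The rises were fewer. Zfp365, which has a role in genome stability after DNA damage, had 3.68 and 3.20 FPKM in HDACi 4b libraries, against 1.10 and 1.12 FPKM in controls, a ratio of 3.10 (log2 difference 1.07 ± 0.11, SE; adjusted p = 0.00095). Zfp185, which encodes a LIM domain protein of the actin cytoskeleton, had 2.88 and 2.82 FPKM in HDACi 4b libraries, against 1.30 and 1.04 FPKM in controls (0.83 ± 0.11, adjusted p = 0.00234). Both were under 2 FPKM in controls and became members through their level in treated cells. Zfp57, a KRAB zinc finger protein that binds methylated imprinting control regions and keeps them methylated, had 6.29 and 5.50 FPKM in HDACi 4b libraries, against 3.12 and 2.15 FPKM in controls, a ratio of 2.24 (0.93 ± 0.15, adjusted p = 0.00496). These 3 genes and Zfp385a were the only members with a ratio over 2.

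Among the more abundant members that rose, Zfp706 was at the top of the family, with 48.5 and 45.9 FPKM in HDACi 4b libraries, against 32.6 and 35.1 FPKM in controls (log2 difference 0.47 ± 0.07, SE; adjusted p = 0.00346). In mouse embryonic stem cells its product restrains Klf4 and helps the exit from self-renewal. Zfp516, which activates brown fat genes, had 23.6 and 23.9 FPKM in HDACi 4b libraries, against 17.2 and 15.4 FPKM in controls (0.52 ± 0.08, adjusted p = 0.00321). Zfp217, whose human counterpart is amplified in breast cancer, had 11.2 and 11.3 FPKM in HDACi 4b libraries, against 6.06 and 6.86 FPKM in controls (0.72 ± 0.08, adjusted p = 0.0014). The 2 groups did not overlap for any of these genes. Zfp281, a pluripotency factor, had 13.4 and 14.2 FPKM in HDACi 4b libraries, against 9.55 and 10.5 FPKM in controls (0.43 ± 0.08, adjusted p = 0.00648), and its adjusted p was 0.0522 without HDACi 4b replicate 2. Zfp983 had 10.4 and 11.9 FPKM in HDACi 4b libraries, against 7.26 and 4.38 FPKM in controls (0.87 ± 0.22, adjusted p = 0.028), and its adjusted p reached 0.0848 and 0.119 without HDACi 4b replicate 1 and 2 and 0.0574 with no filter. Zfp612, Zfp961, Zfp251 and Zfp106 had ratios of 1.52, 1.32, 1.20 and 1.19, and each of these calls was lost when either HDACi 4b library was left out, with adjusted p up to 0.0589, 0.107, 0.208 and 0.165. Those of Zfp961 and Zfp106 were also lost without control replicate 2, and that of Zfp251 without control replicate 1.

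**Figure D3:**
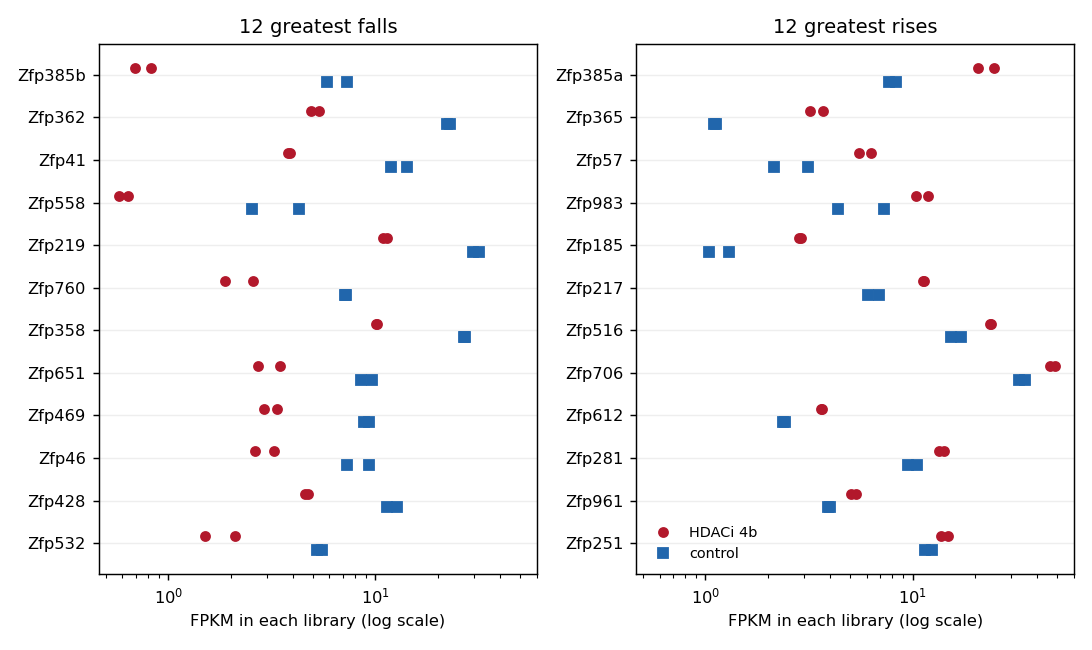
FPKM (log scale) in each of the 4 libraries for the 12 greatest falls and the 12 greatest rises by log2 difference among called members, with red circles for HDACi 4b and blue squares for controls. No gene shown has overlapping groups, and the controls of Zfp558 and Zfp983 lie farther apart than those of most others.

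The windows around the transcription starts of 4 members are shown because they form pairs that moved in opposite directions: the paralogues Zfp385a and Zfp385b, and Zfp57 and Zfp445, a pair of KRAB zinc finger genes with shared duties at imprinted loci in mouse. Zfp445 was chosen after its values were seen, with 12.7 and 13.7 FPKM in HDACi 4b libraries, against 18.4 and 18.2 FPKM in controls (log2 difference -0.44 ± 0.07, SE; adjusted p = 0.00425 in limma). Each window runs from 250 bases before to 50 bases after a RefSeq start on GRCm38.p6 and is written 5′ to 3′ in the direction of transcription, and capitals mark GC boxes (GGGCGG on either strand), the site read by Sp and Klf factors. The genes have 2, 4, 3 and 1 such windows in the order below, and the window with the most CpG dinucleotides was taken. They are chr15:103340037-103340336 (minus strand) for Zfp385a, chr2:77816767-77817066 (minus strand) for Zfp385b, chr17:37002275-37002574 (plus strand) for Zfp57 and chr9:122865957-122866256 (minus strand) for Zfp445.
Zfp385a: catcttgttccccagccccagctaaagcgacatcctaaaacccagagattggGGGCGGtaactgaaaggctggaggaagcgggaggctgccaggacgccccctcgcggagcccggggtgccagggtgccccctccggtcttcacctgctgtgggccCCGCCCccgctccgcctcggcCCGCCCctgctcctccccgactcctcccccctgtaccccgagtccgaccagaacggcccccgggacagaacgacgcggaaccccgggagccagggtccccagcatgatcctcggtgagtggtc
Zfp385b: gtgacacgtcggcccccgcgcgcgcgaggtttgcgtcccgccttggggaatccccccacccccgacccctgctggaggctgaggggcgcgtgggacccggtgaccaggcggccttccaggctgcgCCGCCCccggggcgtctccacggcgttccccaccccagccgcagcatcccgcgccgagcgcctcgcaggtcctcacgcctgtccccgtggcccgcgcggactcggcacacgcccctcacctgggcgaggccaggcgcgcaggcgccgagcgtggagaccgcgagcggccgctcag
Zfp57: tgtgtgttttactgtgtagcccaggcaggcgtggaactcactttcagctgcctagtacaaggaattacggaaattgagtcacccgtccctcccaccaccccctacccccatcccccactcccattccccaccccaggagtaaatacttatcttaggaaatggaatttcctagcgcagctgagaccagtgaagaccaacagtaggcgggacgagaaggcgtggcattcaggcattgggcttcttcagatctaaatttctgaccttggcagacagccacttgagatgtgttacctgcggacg
Zfp445: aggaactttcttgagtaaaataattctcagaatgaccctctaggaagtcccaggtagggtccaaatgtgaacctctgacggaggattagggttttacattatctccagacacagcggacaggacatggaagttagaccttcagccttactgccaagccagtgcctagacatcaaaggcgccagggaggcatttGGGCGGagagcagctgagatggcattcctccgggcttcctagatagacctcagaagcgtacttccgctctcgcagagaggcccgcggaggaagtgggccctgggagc
The Zfp385a window held 3 GC boxes and 23 CpG, and the Zfp385b window 1 GC box and 43 CpG. The Zfp57 window held no GC box and 9 CpG, and the Zfp445 window 1 GC box and 10 CpG. CpG-rich and CpG-poor starts thus stood on both sides of the change in these 4 genes.

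Such windows were found by symbol for 176 of the 214 members (222 windows), and 38 members had none. A GC box on either strand was in 54.5% of the members' windows, against 66.8% of 9617 windows of other genes at 2 FPKM or more and 35.7% of all 32851 windows. The ETS motif CCGGAAG was in 20.7% of the members' windows, 18.9% of those of other expressed genes and 8.86% of all. The CCAAT box (CCAAT) was in 44.1%, 37.1% and 37.4%, the TATA box (TATAAA) in 7.66%, 6.56% and 13.6%, and the E-box CACGTG in 5.86%, 10.8% and 7.15%. The palindromic NRF1 motif was in 3.15%, 2.12% and 0.971%, and the cyclic AMP response element (TGACGTCA) in 2.70%, 3.12% and 1.79%. The median window of a member held 17 CpG, against 22 for other expressed genes and 7 for all windows. Taking the window richest in CpG for each gene, the median was 19 CpG for 114 members called lower, 20 CpG for 9 called higher and 16 CpG for 53 not called, with wide overlap (3 to 59, 7 to 49 and 5 to 44 CpG). Matches of different motifs may share bases, and a match is only a string of letters, not a bound site.

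By protein features the members fell into a few classes, and the 2 large ones had similar medians. A KRAB A box pattern together with C2H2 fingers was found in 95 members, of which 57 were lower and 5 higher, with a median log2 difference of -0.44. C2H2 fingers without a KRAB A box were found in 111 members, of which 76 were lower and 6 higher, with a median of -0.46. An absolute log2 difference of at least 1 was passed downward by 5 of the 95 KRAB members and 15 of these 111. Upward it was passed by 0 and 1. Among all genes at 2 FPKM or more 6.77% passed it downward and 7.05% upward. Genes with 1 to 4, 5 to 9 and 10 or more finger patterns numbered 38, 70 and 98, with 22, 46 and 65 lower, 5, 1 and 5 higher, and medians of -0.34, -0.46 and -0.46. No C2H2 finger pattern was found in 6 members, Zfp36, Zfp185, Zfp330, Zfp365, Zfp503 and Zfp703, of which 2 were lower and 2 higher (median -0.08). Of these, Zfp330 is named for its class and was chosen after its values were seen, with a log2 difference of -0.36, a call that was lost without control replicate 1 or HDACi 4b replicate 1, with no filter and with median-ratio scaling (adjusted p of up to 0.143). No coding transcript was annotated for Zfp125 and Zfp469, both lower. Differences between classes were not tested.

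Among the KRAB members, those with well-known targets moved unequally. Besides Zfp57, higher, and Zfp445, lower, as given above, Zfp568, which represses a placental promoter of Igf2, had 3.22 and 3.22 FPKM in HDACi 4b libraries, against 4.84 and 4.35 FPKM in controls (log2 difference -0.40 ± 0.09, SE; adjusted p = 0.0123). That call was lost without HDACi 4b replicate 1 or 2, with an adjusted p of up to 0.0733. Zfp809, which silences murine leukaemia viruses through their primer binding site, had 5.48 and 5.78 FPKM in HDACi 4b libraries, against 6.35 and 6.64 FPKM in controls (-0.18 ± 0.08, adjusted p = 0.0976). The groups did not overlap for Zfp809, but the difference did not pass the test. Zfp369, which binds the neurotrophin receptor p75 as Zfp110 does, fell (ratio 0.625, adjusted p = 0.00369), whereas Zfp110 had a ratio of 0.855 (adjusted p = 0.0683). Zfp354c, a repressor in bone-forming cells, had a ratio of 0.645 and an adjusted p of 0.050, just outside the threshold.

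Of 48 Zfp genes listed for a well-known role, 41 were members, and 22 of these (53.7%) were lower, 7 (17.1%) higher and 12 not called, against 64.0% lower and 6.07% higher among all 214 members. Zfp827, which brings NuRD to telomeres, had 1.22 and 1.37 FPKM in HDACi 4b libraries, against 4.24 and 4.15 FPKM in controls (log2 difference -1.18 ± 0.10, SE; adjusted p = 0.000525). Zfp462, a large multi-finger protein needed for pluripotency, had 3.42 and 3.26 FPKM in HDACi 4b libraries, against 9.32 and 7.77 FPKM in controls (-1.13 ± 0.10, adjusted p = 0.000736). Zfp326, which couples splicing to transcript elongation in the DBIRD complex, had 2.50 and 2.84 FPKM in HDACi 4b libraries, against 7.19 and 6.22 FPKM in controls (-1.07 ± 0.10, adjusted p = 0.000881). In each of these genes the level in treated libraries was under that in either control by a wide margin. Zfp827 was under 2 FPKM in treated cells and became a member through its level in controls. Zfp451, a SUMO ligase, had a ratio of 0.491, and Zfp592, a partner of the chromatin reader ZMYND8, a ratio of 0.668. Zfp687, another protein of the same ZMYND8 complex, had 8.98 and 8.42 FPKM in HDACi 4b libraries, against 9.45 and 10.6 FPKM in controls, and did not pass the test (adjusted p = 0.114).

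Zfp467, which favours fat over bone formation, had 7.41 and 6.53 FPKM in HDACi 4b libraries, against 15.1 and 15.2 FPKM in controls (log2 difference -1.02 ± 0.08, SE; adjusted p = 0.000509). Zfp503, a developmental repressor, had 5.84 and 5.03 FPKM in HDACi 4b libraries, against 10.4 and 13.7 FPKM in controls (-1.01 ± 0.15, adjusted p = 0.00346). Zfp703, the paralogue of Zfp503 and the counterpart of a human breast cancer gene, had 10.9 and 9.44 FPKM in HDACi 4b libraries, against 8.79 and 9.86 FPKM in controls, and these overlapped. Zfp260, a heart regulator, Zfp24, needed for myelination, Zfp622, a ribosome assembly factor, and Zfp292 fell with ratios of 0.525, 0.598, 0.622 and 0.599. Zfp318, which governs the IgM to IgD choice in B cells, had a ratio of 0.607. Zfp830, Zfp277, Zfp91, Zfp64 and Zfp638 had ratios of 0.722, 0.730, 0.757, 0.724 and 0.766 and also passed the test. The calls of Zfp277, Zfp91, Zfp64 and Zfp638 were lost without at least 1 library. Those of Zfp277, Zfp64 and Zfp638 were lost with median-ratio scaling too.

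At the abundant end, Zfp207, which loads Bub3 on kinetochores, had 25.6 and 26.8 FPKM in HDACi 4b libraries, against 36.7 and 33.3 FPKM in controls (log2 difference -0.40 ± 0.08, SE; adjusted p = 0.00704, and 0.0625 without HDACi 4b replicate 1). Zfp740 had 17.6 and 18.7 FPKM in HDACi 4b libraries, against 34.0 and 32.3 FPKM in controls (-0.83 ± 0.07, adjusted p = 0.000537). Zfp53 had a ratio of 0.772 and Zfp579 a ratio of 0.698, with calls that were lost without HDACi 4b replicate 2 and with median-ratio scaling for Zfp53, and without HDACi 4b replicate 1 for Zfp579 (adjusted p of up to 0.0834 and 0.0554). Zfp52, a neighbour of Zfp53, had 22.1 and 24.1 FPKM in HDACi 4b libraries, against 24.1 and 24.3 FPKM in controls, and was not called (adjusted p = 0.451). Of the 6 most abundant members, therefore, 4 were lower, 1 was higher and 1 was not called.

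Some members with known roles differed little. The 5 with the smallest log2 differences were Zfp105, Zfp654, Zfp598, Zfp526 and Zfp677, at 0.0011, 0.0061, 0.014, 0.027 and 0.033. Zfp598, the ligase that marks collided ribosomes, had 23.3 and 20.9 FPKM in HDACi 4b libraries, against 23.5 and 20.3 FPKM in controls. Zfp143, an activator of small nuclear RNA genes that is also found at chromatin loops, had 6.23 and 6.50 FPKM in HDACi 4b libraries, against 5.38 and 5.93 FPKM in controls (adjusted p = 0.175). Zfp148, Zfp335, Zfp346 and Zfp800 had ratios of 0.935, 0.894, 1.06 and 0.883 and were not called. A p that misses the threshold does not show that these genes were equal in both groups.

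Zfp36 has CCCH fingers, not C2H2 fingers, and its product tristetraprolin promotes the decay of AU-rich mRNAs. It had 16.7 and 15.2 FPKM in HDACi 4b libraries, against 23.9 and 15.7 FPKM in controls, and the difference did not pass the test (adjusted p = 0.32). The spread between the 2 controls was larger than the difference between groups. Its paralogues, which the name rule leaves out, moved apart: Zfp36l1 had 12.4 and 12.1 FPKM in HDACi 4b libraries, against 8.89 and 8.52 FPKM in controls, and Zfp36l2 had 8.58 and 8.01 FPKM in HDACi 4b libraries, against 21.2 and 21.5 FPKM in controls (log2 differences 0.45 and -1.26, adjusted p = 0.00352 and 0.000198). Of 16 genes listed for this family, for other proteins that bind AU-rich mRNAs and for mRNA decay, 12 were lower and 1 higher. These are 75% and 6.25%, against 38.1% and 22.4% of all genes tested. The deadenylase gene Cnot7 had a ratio of 0.579.

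The members lie in groups along the chromosomes, as KRAB zinc finger genes do in mouse. Chromosome 7 held 46 of them, of which 29 were lower and 0 higher in limma, and 5 had a positive log2 difference. Chromosome 17 held 28 (17 lower, 2 higher), chromosome 8 held 18 (11 lower, 2 higher), chromosome 6 held 16 (11 lower, 0 higher) and chromosome 5 held 12 (11 lower, 0 higher). The shares lower were 63.0%, 60.7%, 61.1%, 68.75% and 91.7% on chromosomes 7, 17, 8, 6 and 5. Of all 214 members 64.0% were lower and 6.07% higher, and of all genes tested 38.1% and 22.4%. Shares on chromosomes 7, 17 and 8 were thus near that of the whole family. On chromosomes 7, 6 and 5 the count of higher members was also 0 at an unadjusted p of 0.05 and 0 with limma-voom. With median-ratio scaling 1 member was higher on chromosome 7, 1 on chromosome 6 and 0 on chromosome 5. On chromosome 15, 5 of 10 were lower and 3 higher, Zfp385a, Zfp706 and Zfp251. The run of 14 neighbouring members from Zfp160 to Zfp946 on chromosome 17, which includes Zfp52, Zfp53, Zfp760 and Zfp983, had 9 lower and 1 higher, so that Zfp760 (ratio 0.310) and Zfp983 (ratio 1.92) stood in the same run. The run of 9 from Zfp553 to Zfp646 on chromosome 7 had 7 lower and 0 higher, with a median log2 difference of -0.64, and 0 were higher at an unadjusted p of 0.05 or with limma-voom. Genes of such runs can be near-identical copies that share reads, and the treatment of reads that match several places is unknown here.

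Other families named for zinc-binding domains were set beside the members at the same level. Of all genes at that level, 40.0% were lower and 22.5% higher. Zbtb genes, which pair C2H2 fingers with a BTB domain, had 19 of 29 lower and 1 higher, with a median log2 difference of -0.43. Zscan and Zkscan genes, which pair C2H2 fingers with a SCAN domain, had 9 of 14 lower and 0 higher (median -0.52). Klf and Sp genes had 6 of 14 lower and 0 higher (-0.35). In both of the last families 0 genes were higher at an unadjusted p of 0.05 in limma and 0 with limma-voom, which covers 11 of the Klf and Sp genes. With median-ratio scaling 3 Klf and Sp genes were higher and 4 lower, so their count of 0 did not hold there. That scaling gave 0 higher and 8 lower for Zscan and Zkscan genes, and 3 higher and 17 lower for Zbtb genes. The families with other kinds of zinc-binding domain had medians nearer to that of all genes, but their shares called lower were not below that of Klf and Sp genes. The shares lower were 46.7% for Zc3h, 47.1% for Zdhhc and 47.2% for Rnf genes, against 42.9% for Klf and Sp genes. Zc3h genes, with CCCH fingers, had 7 of 15 lower and 2 higher (-0.18), Zdhhc genes, which encode palmitoyl transferases, had 8 of 17 lower and 4 higher (-0.03), and Rnf genes, which encode RING finger ligases, had 25 of 53 lower and 10 higher (-0.23). Differences between families were not tested.

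**Figure D4:**
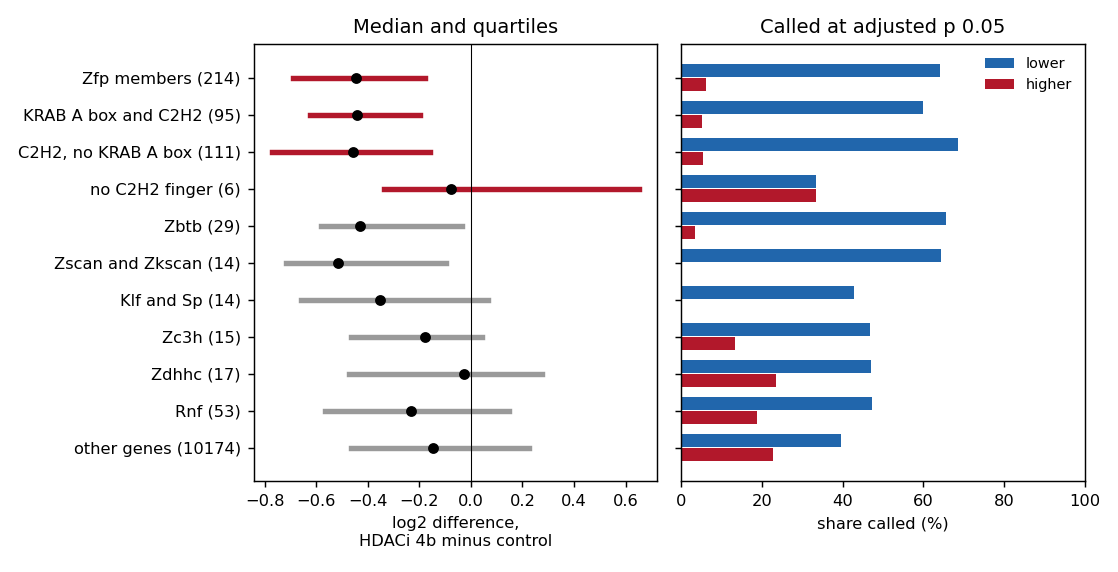
Left, median (point) and quartiles (line) of the log2 difference (HDACi 4b minus control) for the Zfp members, their protein classes and other families at 2 FPKM or more, numbers of genes in parentheses. Right, percent of each group called lower or higher at an adjusted p of 0.05. The KRAB and non-KRAB classes of C2H2 genes had medians of -0.44 and -0.46, the Zbtb genes -0.43 and the Zdhhc genes -0.03.

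A list of genes of the corepressor that KRAB zinc finger proteins recruit, and of other chromatin and DNA methylation factors, was more often lower than higher. That was also so among all genes tested (38.1% lower and 22.4% higher, against 55% and 5% of this list). Of 20 tested genes of this list, 11 were lower and 1 higher, with a median log2 difference of -0.33 (-0.18 after median-ratio scaling). Median-ratio scaling gave 7 lower and 2 higher, and the fit without HDACi 4b replicate 1 gave 6 lower and 1 higher. Trim28 had 61.9 and 60.5 FPKM in HDACi 4b libraries, against 110 and 114 FPKM in controls (log2 difference -0.86 ± 0.06, SE; adjusted p = 0.0004). Elsewhere in the list, the HP1 gene Cbx3 had a ratio of 0.538, the remodeller gene Smarcad1 a ratio of 0.451 and the methyltransferase gene Suv39h1 a ratio of 0.287. All 4 of these calls held in every alternative fitted. Setdb1 had 8.67 and 9.87 FPKM in HDACi 4b libraries, against 12.1 and 11.6 FPKM in controls (-0.33 ± 0.09, adjusted p = 0.0223), a call that was lost without control replicate 1 or HDACi 4b replicate 1 and with 2 other settings, with an adjusted p of up to 0.122. The gene that rose was Dnmt1, the maintenance DNA methyltransferase, with 8.30 and 9.08 FPKM in HDACi 4b libraries, against 6.80 and 6.28 FPKM in controls (0.36 ± 0.08, adjusted p = 0.0143), a call that was lost without control replicate 2 or HDACi 4b replicate 2, with an adjusted p of up to 0.0913.

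Of 16 genes of class I deacetylases and the NuRD complex, 10 were lower and 5 higher, and without HDACi 4b replicate 1 or 2 the count of higher genes was 2. With all 4 libraries the shares were 62.5% lower and 31.25% higher, against 38.1% and 22.4% of all genes tested. Median-ratio scaling gave 8 lower and 5 higher. Hdac1, one of the targets of the inhibitor, had 54.9 and 53.0 FPKM in HDACi 4b libraries, against 30.2 and 31.3 FPKM in controls (log2 difference 0.79 ± 0.06, SE; adjusted p = 0.000502). Hdac3, the other target, had 32.7 and 32.9 FPKM in HDACi 4b libraries, against 27.4 and 27.2 FPKM in controls (0.26 ± 0.06, adjusted p = 0.015, and up to 0.0885 without an HDACi 4b library). Hdac2 fell, with 29.2 and 29.2 FPKM in HDACi 4b libraries, against 43.9 and 45.0 FPKM in controls (-0.59 ± 0.06, adjusted p = 0.00101). The class was thus split at the mRNA level. The NuRD genes Chd3 and Mbd3 had ratios of 0.369 and 0.502, and Rbbp7 a ratio of 1.40. Chd4, the NuRD remodeller whose transcription Zfp410 is known to sustain, had 75.7 and 75.5 FPKM in HDACi 4b libraries, against 63.9 and 62.9 FPKM in controls (0.25 ± 0.06, adjusted p = 0.0161, and up to 0.101 without an HDACi 4b library). Zfp410 itself had 2.87 and 2.64 FPKM in HDACi 4b libraries, against 4.72 and 4.58 FPKM in controls (-0.59 ± 0.09, adjusted p = 0.00324).

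**Figure D5:**
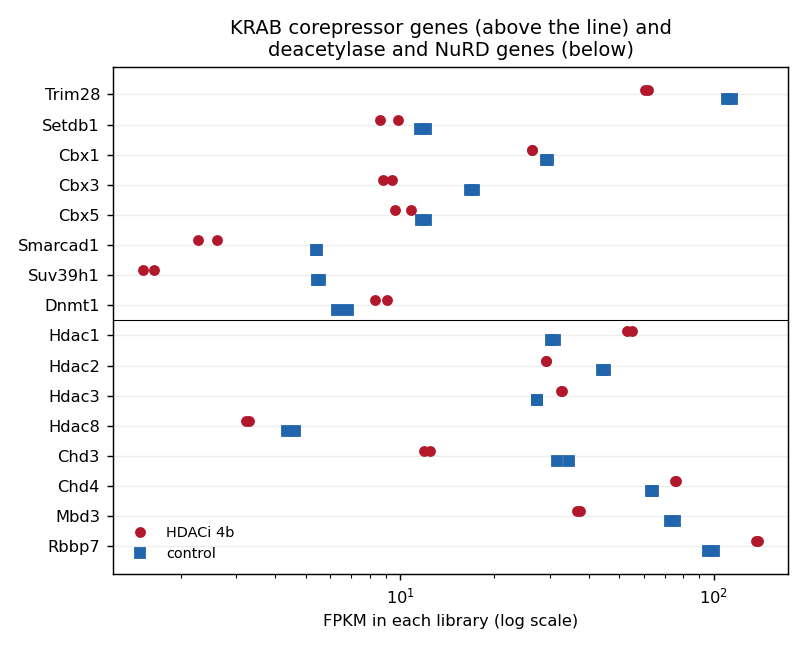
FPKM (log scale) in each of the 4 libraries for 8 genes of the KRAB corepressor list and 8 deacetylase and NuRD genes, with red circles for HDACi 4b and blue squares for controls. Trim28, Cbx3, Suv39h1 and Chd3 lie lower in HDACi 4b libraries, and Hdac1 and Rbbp7 lie higher.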

How the data were processed

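Total RNA libraries were made with an Illumina TruSeq kit. Bowtie 0.12.2 and the build mm8 are listed in the submitters' processing notes, and neither counter nor annotation is given in the sources used here. The values deposited by the authors are FPKM in 1 table with a column per library. The unit was settled from the values, since of 23895 genes matched to GENCODE M21, 21610 came out as whole reads in every library, to within 0.001 reads, once multiplied by exon length and library total. The library totals were themselves inferred from these values, starting from the commonest low product of FPKM and exon length taken as 1 read. Because these lengths belong to another build than the notes, the only coordinates printed are those of promoter windows from RefSeq GRCm38.p6. Whole reads were recovered for 183 members, not for the other 31.

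For the 12054 genes whose mean reached 1 FPKM, limma 3.58.1 (R 4.3.3) was run on log2(FPKM + 1) with trend and robust options, two-sided and without covariates, with Benjamini-Hochberg adjustment over all of them. Differences on this scale understate the change of low genes, and ratios are of mean FPKM. The smallest p that exact permutation of 2 against 2 libraries allows is 0.333, so calls rest on the spread limma shares across genes. C2H2 fingers and the KRAB A box (at least 12 of 24 conserved positions) were sought in translated GENCODE M21 transcripts. Whether counting used strand is not stated, so overlapping and antisense genes may share reads. In data simulated with only a small part of the genes changed, the share of unchanged genes among limma calls exceeded the nominal level. That share depends on how many genes change. Its size may not carry over to these data, where 60.5% of genes tested were called.

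The members and all lists were chosen with earlier results of these data known. Named genes were the 12 greatest rises and falls among called members, the 6 most abundant, those nearest the threshold (3 on each side), the 5 smallest differences, and members with a well-known role. Alternatives were median-ratio scaling, limma-voom on recovered reads, a 0.1 pseudocount, dropping the filter, blocking on the replicate number, leaving out each library, and other member rules. Figures were drawn with matplotlib 3.10.9.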

Additional observations from a re-analysis of the deposited data

How the results depend on the processing

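No called member changed sign under any alternative, and 91 of the 137 members called lower and 7 of the 13 called higher passed the test in every alternative that could be fitted for them, which were 9 for members with whole reads (78 lower, 4 higher) and 8 for the others (13 lower, 3 higher). Leaving out each library in turn gave 100 to 128 members lower and 7 to 12 higher, with 22 to 25 lower and 1 to 4 higher past an absolute log2 difference of 1. Fewest calls were lower without HDACi 4b replicate 1 (100 lower, 8 higher) and fewest higher without HDACi 4b replicate 2 (111 lower, 7 higher). Over all genes, leaving out a library gave 1775 to 2559 higher and 2796 to 4181 lower, and 841 to 958 higher and 716 to 839 lower at that difference. A pseudocount of 0.1 gave 4 members higher and 37 lower at that difference, and median-ratio scaling 4 and 13. Limma-voom on recovered reads, which covers 183 members, called 8 higher and 122 lower, of which 36 lower passed that difference, and over all genes 1673 higher and 1663 lower passed it. A rule of at least 2 FPKM in both groups left 1 member higher and 17 lower at that difference. A mean of at least 5 FPKM left 8 higher and 63 lower, of which 1 and 15 passed it. The counts fell there because fewer genes were members.

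Deviations of same-numbered libraries correlated at 0.0877. With 2 libraries a group, the deviations within a group mirror each other, so this value cannot show whether replicate numbers pair the libraries. With the replicate number as a block, 142 members were lower and 13 higher.

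Among members that did not pass the test, the sign turned in some settings. Over the fits that leave out 1 library the log2 difference ran from -0.050 to 0.052 for Zfp105, -0.0098 to 0.16 for Zfp346, -0.56 to 0.024 for Zfp36, -0.069 to 0.12 for Zfp526, -0.088 to 0.12 for Zfp598 and -0.068 to 0.080 for Zfp654. Median-ratio scaling gave 0.064 for Zfp148, 0.0056 for Zfp335 and 0.093 for Zfp52, and limma-voom gave -0.00083 for Zfp105. The cause was not tested.

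With 2 libraries a group, no outlying library can be told, and depth limits the members at the low end, where 33 reads stood behind the lowest value.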
